A study of Mus musculus with 2 samples.

Results

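The Ly6 surface proteins described here are the products of 5 mouse genes, Ly6a, Ly6c1, Ly6c2, Ly6e and Ly6d. They were taken by symbol from the 32285 features of a droplet single-cell RNA sequencing study of mouse liver tumours, and all 5 are in the files. The genes were selected on their UMI sums and shares of barcodes with a UMI in these same libraries and cell classes, so their levels are a description and none of them was tested. The study holds 2 libraries. The shSrsf10 library comes from tumours of mice labelled with the genotype shSrsf10, a short hairpin RNA against the splicing factor Srsf10, and the shCtrl library from tumours of mice labelled with the genotype WT. Both suspensions were digested with collagenase and DNase, freed of red cells and sorted on a cytometer by a gate that is not stated. The sample protocol adds a slow spin that leaves mainly cells other than hepatocytes. The labels do not give the cells in which the hairpin acts, its promoter, the age or strain of the mice, or how many mice went into each suspension. With 1 library per group, each difference compares these 2 libraries and has no replicate check. The intervals in brackets are 95% intervals that cover counting error only.

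Ly6 proteins are small cysteine-rich proteins that are held at the outer side of the cell membrane by a glycosylphosphatidylinositol anchor. Many of their genes lie in a cluster and are switched on by interferons, during activation of lymphocytes or at certain steps of differentiation. They are best known as labels for sorting cells: Ly6a, also called Sca-1, marks stem and progenitor cells and activated lymphocytes, and the Ly6C antigen, encoded by Ly6c1 and Ly6c2, marks inflammatory monocytes, memory CD8 T cells and some endothelial cells.

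The 5 genes lie within 349.9 kb of chromosome 15 (GENCODE vM21, GRCm38), in this order: Ly6d (ENSMUSG00000034634, 74762056 to 74763620), Ly6e (ENSMUSG00000022587, 74955051 to 74959905), Ly6a (ENSMUSG00000075602, 74994877 to 74998031), Ly6c1 (ENSMUSG00000079018, 75044018 to 75048830) and Ly6c2 (ENSMUSG00000022584, 75108158 to 75111970). Ly6e is on the + strand and the other 4 are on the - strand. All are protein-coding, with 3 exons in the first listed transcript of Ly6d and Ly6a and 4 in those of Ly6e, Ly6c1 and Ly6c2. Ly6c1 and Ly6c2 are near-identical copies: 387 of 396 coding bases are the same, a 97.7% identity. Their coding sequences differ most at the start, which is shown because a read that covers these bases could tell the copies apart. In the first 120 coding bases (coding positions 1 to 120, GENCODE, 5′ to 3′), capitals mark the 6 bases that differ.
Ly6c1: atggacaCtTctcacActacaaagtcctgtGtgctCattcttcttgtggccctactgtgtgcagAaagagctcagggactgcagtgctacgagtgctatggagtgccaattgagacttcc
Ly6c2: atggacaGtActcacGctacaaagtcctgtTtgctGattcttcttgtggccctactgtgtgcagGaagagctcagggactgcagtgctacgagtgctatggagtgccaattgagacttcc
Counted from the first coding base of Ly6c1, the differences are C8G, T10A, A16G, G31T, C36G and A65G. Of the 755 windows of 90 bases in the first listed Ly6c1 transcript, 134 (17.8%) also occur in a Ly6c2 transcript, so a read from such a stretch could not be given to 1 of the copies. The windows cover the whole transcript, and which end was read is not settled. The share of such reads is therefore not known, and levels of Ly6c1 and Ly6c2 are uncertain to an unknown extent. No 90-base window of the first listed transcripts of Ly6a, Ly6e or Ly6d occurs in another of the 5 genes. Ly6a shares 82.0% of aligned coding bases with Ly6c1 and 81.7% with Ly6c2, and Ly6d and Ly6e share 50.6%.

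RefSeq's table (GRCm38.p6) held start windows for 2 of the 5 genes, Ly6c1 and Ly6c2, and the 250 bases before the first listed start of each aligned with 57.7% identity. Of the 284 aligned columns 68 are gaps, 31 of them at the start of the alignment, so the windows are offset, and without gaps the identity is 75.9%. They are shown because Ly6c1 was highest in endothelial barcodes, where Ly6c2 had 0 UMIs. Ly6c1 is at chr15:75048838-75049087 and Ly6c2 at chr15:75111972-75112221, both on the - strand and written 5′ to 3′. Capitals mark a match to TATAAA.
Ly6c1: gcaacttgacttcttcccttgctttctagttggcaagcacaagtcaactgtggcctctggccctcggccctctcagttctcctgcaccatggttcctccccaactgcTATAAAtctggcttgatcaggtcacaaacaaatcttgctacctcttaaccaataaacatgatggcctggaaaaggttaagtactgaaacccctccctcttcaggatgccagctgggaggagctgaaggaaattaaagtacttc
Ly6c2: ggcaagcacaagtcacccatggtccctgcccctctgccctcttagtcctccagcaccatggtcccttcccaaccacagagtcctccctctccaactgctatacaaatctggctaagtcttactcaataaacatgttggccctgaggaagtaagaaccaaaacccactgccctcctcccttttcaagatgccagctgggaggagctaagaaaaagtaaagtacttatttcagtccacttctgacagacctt
2 motifs were searched on both strands: TATAAA and the core of the interferon-stimulated response element (GAAA, any 2 bases, GAAA). The Ly6c1 window held TATAAA once. The response element core gave no match in either window. Over the 27025 genes of the table, 12.97% of such windows held TATAAA and 3.04% held the response element core.

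The shSrsf10 file held 7553 barcodes and 136419902 UMIs, and the shCtrl file 9920 barcodes and 143327661 UMIs. After filters on depth, mitochondrial share and doublet score, 7030 shSrsf10 and 8755 shCtrl barcodes were kept, and 57 barcode sequences occurred in both libraries. The shallowest barcode of each file held 500 UMIs. Barcodes were put in 6 classes by a few genes each: tumour, CD8 T, other T, neutrophil, macrophage and endothelial. Tumour barcodes numbered 3628 in shSrsf10 and 6257 in shCtrl, CD8 T barcodes 1062 and 105, other T barcodes 794 and 221, neutrophils 286 and 142, macrophages 124 and 378, and endothelial barcodes 22 and 42. Markers that the class rules did not use were highest in their own class for 8 of 10 tumour markers and 8 of 8 markers of each other class (T markers were shared by both T classes), in both libraries. Levels are CPM, the UMIs of a gene per 1000000 UMIs of the class. Srsf10, the target, stood at 19.6 CPM in shSrsf10 and 46.0 CPM in shCtrl tumour barcodes (log2 ratio -1.23, -1.31 to -1.16). In CD8 T barcodes it was at 51.3 CPM in shSrsf10 and 84.1 CPM in shCtrl (-0.71, -1.25 to -0.14), and in macrophages at 39.7 CPM in shSrsf10 and 38.5 CPM in shCtrl (0.04, -0.86 to 0.89).

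Ly6a, Ly6c1 and Ly6c2 were higher in the shSrsf10 library in each of the 6 classes where the gene had at least 20 UMIs and UMIs in both libraries. Ly6e was within 1.5-fold in tumour, other T and macrophage barcodes and higher in the other 3 classes, most in neutrophils, and Ly6d was lower in the 5 classes with enough UMIs. A ratio was read where both libraries together held at least 20 UMIs of the gene, and a gene was counted as higher or lower at 1.5-fold, or as higher where it had 0 UMIs in shCtrl. In tumour barcodes 3 of 5 members were higher and 1 was lower, where 8.35% of the 14570 genes compared were higher and 13.4% lower. In CD8 T barcodes 4 were higher, Ly6c1 among them through its 0 UMIs in shCtrl, and 1 lower, against 22.6% and 22% of 8528 genes. In other T barcodes 2 of 4 measured members were higher and 1 lower, against 14.3% and 25.3% of 8277 genes. In neutrophils 3 of 4 were higher and 1 lower, against 30.4% and 18.6% of 2070 genes. In macrophages 2 of 4 were higher and 1 lower, against 9.26% and 24.6% of 5791 genes. In endothelial barcodes 3 of 3 were higher, against 22.1% of 2104 genes, with 25.3% lower. The members were chosen with these same ratios known, so nothing is read from these counts.

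**Figure D1:**
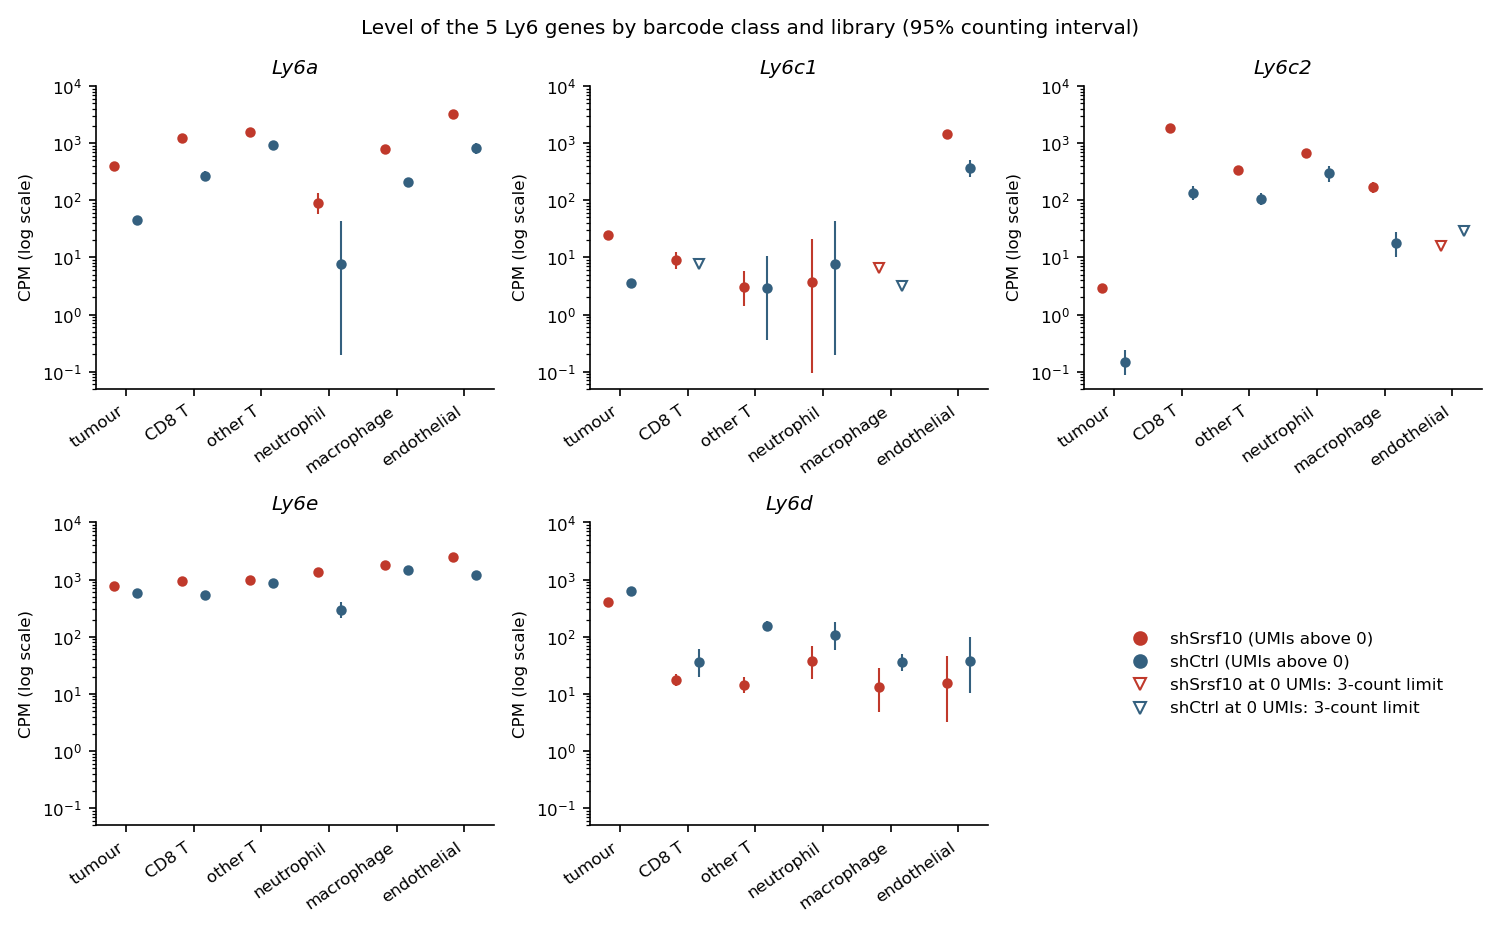
Level of each gene in CPM (log axis) in 6 barcode classes, with shSrsf10 points left of shCtrl points and bars for the 95% Poisson interval of the counts; open triangles mark the level of 3 counts where a library had 0 UMIs. Ly6c1 is highest in endothelial barcodes, where Ly6c2 has 0 UMIs in both libraries, and Ly6c2 is highest in CD8 T barcodes of shSrsf10.

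Ly6a had 41799 UMIs in shSrsf10 and 5337 UMIs in shCtrl tumour barcodes, or 390.4 CPM (387 to 394) and 44.3 CPM (43.2 to 45.6). The intervals are far apart, and the log2 ratio was 3.14 (3.10 to 3.18). A Ly6a UMI was found in 78.4% of shSrsf10 and 22.4% of shCtrl tumour barcodes. After thinning each barcode to 1000 UMIs, which left out 24 shSrsf10 and 33 shCtrl barcodes, the share was 23.9% (22.5 to 25.3) in shSrsf10 and 3.04% (2.62 to 3.49) in shCtrl. Before thinning the median tumour barcode had 26090 UMIs in shSrsf10 and 17051 UMIs in shCtrl, and the log2 ratio after thinning was 3.20. The median barcode stood at 157 CPM in shSrsf10 and at 0 in shCtrl, and the top 10% of barcodes began at 954 and 86.4 CPM. RNA of immune cells was also higher there: 19 immune genes, none of them at 0, summed to 55.7 CPM in shSrsf10 and 30.9 CPM in shCtrl tumour barcodes. CD8 T RNA scaled by T cell genes would give 1.21 CPM of Ly6a in shSrsf10 and 0.078 CPM in shCtrl tumour barcodes. In the 35.9% of shSrsf10 and 70.6% of shCtrl tumour barcodes without a UMI of these 19 genes the log2 ratio of Ly6a was 3.09.

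Other cells of the tumours also held Ly6a, and in each class the level was higher in shSrsf10. Endothelial barcodes had 3254 CPM (3003 to 3520) in shSrsf10 and 819 CPM (655 to 1012) in shCtrl. This was the highest level among the 6 classes in shSrsf10, though 25.3% of its 620 UMIs came from 1 barcode. Other T barcodes, T cells without a Cd8a or Cd8b1 UMI, had 1557 CPM (1512 to 1603) and 916 CPM (845 to 990.4), and CD8 T barcodes 1239 CPM (1205 to 1274) and 268 CPM (219 to 324). Macrophages followed at 794 CPM (714 to 880.0) and 206 CPM (179 to 237). In shCtrl the order was other T and endothelial, whose intervals overlap, then CD8 T and macrophages, whose intervals also overlap. The log2 ratio was 1.99 (1.66 to 2.33) in endothelial, 2.21 (1.93 to 2.50) in CD8 T, 1.94 (1.69 to 2.20) in macrophage and 0.77 (0.64 to 0.89) in other T barcodes. After thinning it was 1.43 in endothelial, below that interval, 2.28 in CD8 T, 2.03 in macrophage and 0.79 in other T barcodes. The interval for other T barcodes lay below those of the 5 other classes, and with the UMI thresholds of the class rules doubled its ratio was 0.57, under 1.5-fold. Neutrophils held few Ly6a UMIs, 24 UMIs in shSrsf10 and 1 UMI in shCtrl. Their 90.1 CPM in shSrsf10 is not far above the 56.3 CPM that tumour RNA would give if it were present in proportion to 10 tumour marker genes, and its part in that level was not tested.

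**Figure D2:**
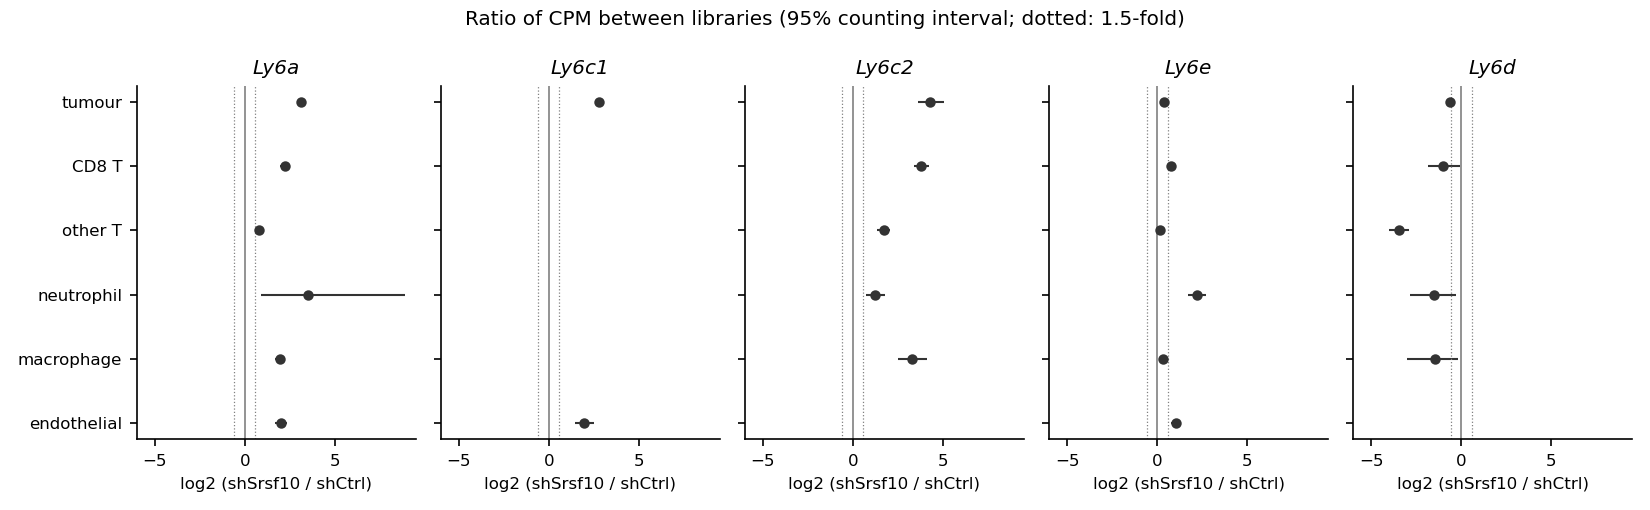
Log2 ratio of CPM, shSrsf10 over shCtrl, for each gene and class with at least 20 UMIs and UMIs in both libraries; bars are 95% counting intervals and dotted lines mark 1.5-fold. Ly6a, Ly6c1 and Ly6c2 lie right of 0 in each class drawn and Ly6d left of 0.

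Among tumour barcodes Ly6a was highest where MHC class II RNA was highest, and the fold between the libraries was smallest there. Class II level was the summed CPM of Cd74, H2-Aa, H2-Ab1 and H2-Eb1 in each barcode, genes induced by interferon gamma that present peptide to CD4 T cells. In barcodes with no class II UMI, Ly6a was at 325 CPM in shSrsf10 and 31.6 CPM in shCtrl, a 10.3-fold difference. In barcodes above 2000 CPM of class II it was at 459 CPM in shSrsf10 and 158 CPM in shCtrl, a 2.91-fold difference. In shSrsf10 the lowest level, 293 CPM, was in the bin above 0 to 100 CPM of class II, while shCtrl was higher in each further bin. The bins between gave 6.79-, 4.85- and 4.67-fold from low to high. Barcodes without class II numbered 398 of 3628 in shSrsf10 and 3849 of 6257 in shCtrl, and those above 2000 CPM 1005 and 134. With equal weight for each bin the log2 ratio of Ly6a was 2.23, against 3.14 over all barcodes. Cycling tumour barcodes, with at least 2 UMIs of Mki67 and Top2a, had 421 CPM in shSrsf10 and 59.2 CPM in shCtrl, and the rest 360.4 and 34.0 CPM, so Ly6a was higher in shSrsf10 in both. Barcodes with a UMI of Tff2, a mucosal peptide gene, had 434 CPM in shSrsf10 and 72.5 CPM in shCtrl, against 195 and 14.9 CPM without it.

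Ly6a was also higher where liver genes were lower. Tumour barcodes of both libraries were put in 4 equal-sized groups by the summed level of Alb, Apoa1, Ttr and Afp, which encode secreted proteins of mature or fetal hepatocytes. From the lowest to the highest group, Ly6a was at 574, 288, 217 and 119.6 CPM in shSrsf10 and at 91.0, 71.7, 32.7 and 14.7 CPM in shCtrl. The level was lower in each step up in both libraries, and shSrsf10 was 4.02- to 8.11-fold higher within a group. In the lowest group were 1546 shSrsf10 and 925 shCtrl barcodes. The equal-weight log2 ratio over the 4 groups was 2.51. Over single tumour barcodes, the genes whose scaled log level correlated most with Ly6a were Lgals1 (galectin-1), Ly6c1, Anxa1 (annexin A1), S100a11 and Tff2 in shSrsf10, with Pearson r from 0.51 to 0.40 over 3628 barcodes. In shCtrl, Tff2, Lgals1 and S100a11 were again among the 5 highest, with r of 0.36, 0.34 and 0.26 over 6257 barcodes. The lowest were Spp2 (-0.44) and Ttr (-0.43) in shSrsf10 and Ttr (-0.26) and Spp2 (-0.26) in shCtrl, both genes of secreted liver proteins. These barcodes share a library, and r with the log of total UMIs was 0.22 in shSrsf10 and 0.13 in shCtrl.

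**Figure D3:**
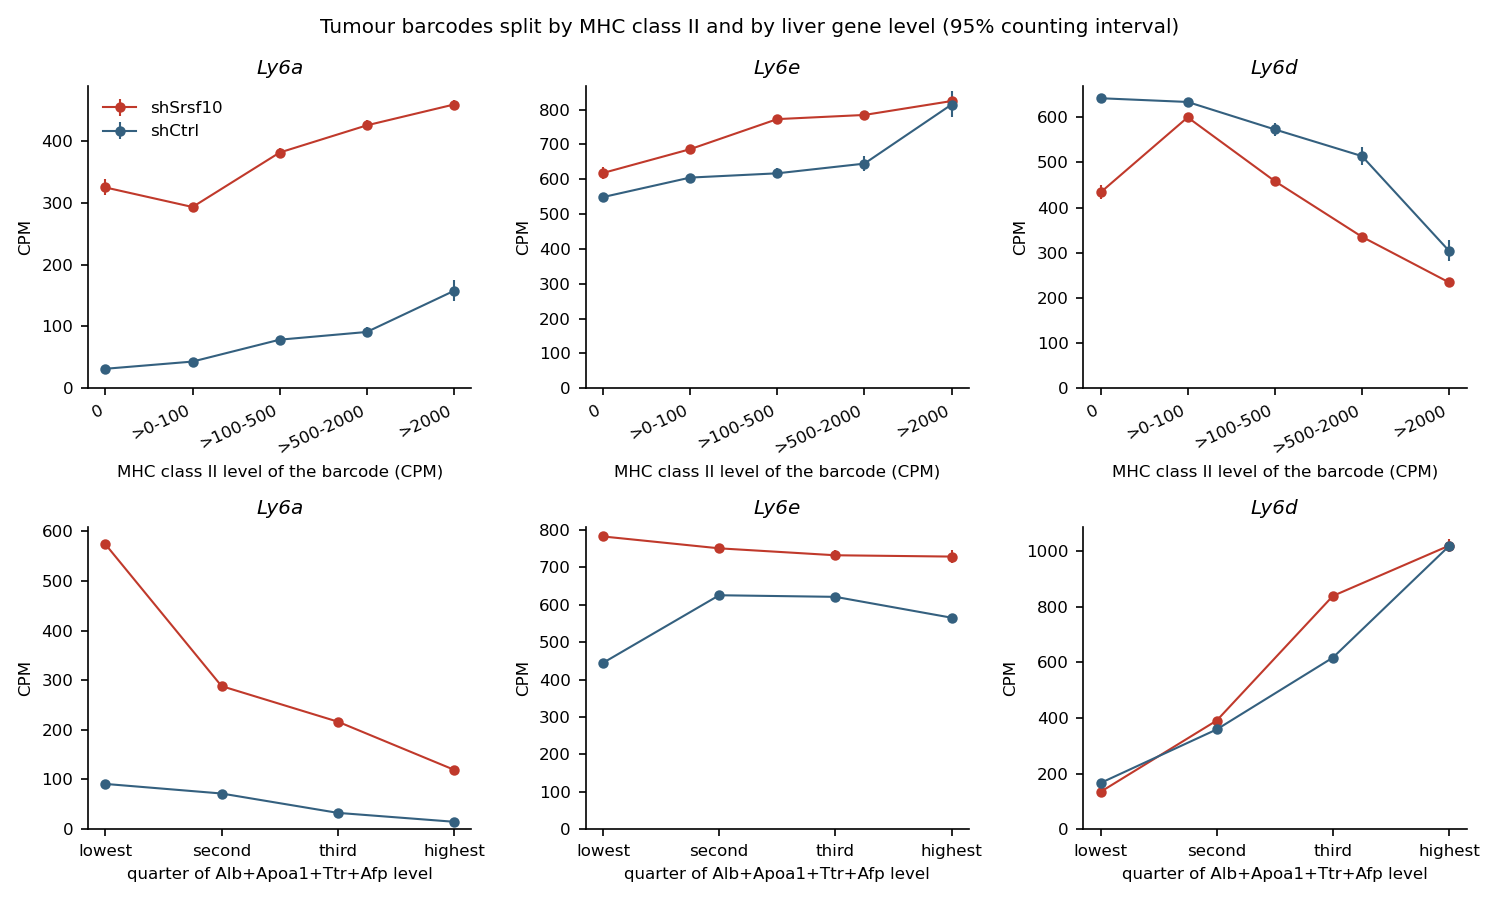
CPM of Ly6a, Ly6e and Ly6d in tumour barcodes of shSrsf10 (red) and shCtrl (blue), split by MHC class II level of the barcode (upper row) and by 4 equal-sized groups of the summed Alb, Apoa1, Ttr and Afp level (lower row); bars are 95% Poisson intervals. Ly6a of shSrsf10 stays above shCtrl in every bin, while the Ly6d lines of the libraries meet in the highest liver gene group.

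Ly6c1 was highest in endothelial barcodes, with 1417 CPM (1253 to 1596) in shSrsf10 and 362 CPM (256 to 497) in shCtrl. The log2 ratio was 1.97 (1.48 to 2.50), from 270 UMIs in 22 shSrsf10 and 38 UMIs in 42 shCtrl barcodes. A single barcode gave 24.1% of these UMIs in shSrsf10 and 26.3% in shCtrl. A Ly6c1 UMI was found in 81.8% of barcodes at a median depth of 5456 UMIs in shSrsf10, and in 23.8% at 2040.5 UMIs in shCtrl. Without the barcode with most Ly6c1 UMIs in each library the log2 ratio was 2.05, and after thinning it was 2.69. Ly6c2 had 0 UMIs in endothelial barcodes of both libraries, where 3 counts would be 15.7 CPM in shSrsf10 and 28.6 CPM in shCtrl.

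Tumour barcodes held Ly6c1 at a low level, 24.7 CPM (23.8 to 25.7) in shSrsf10 and 3.53 CPM (3.20 to 3.88) in shCtrl. The log2 ratio was 2.81 (2.66 to 2.96), and with equal weight per group it was 2.31 over the liver gene groups and 1.81 over the class II bins. The level went with that of Ly6a. In tumour barcodes with no Ly6a UMI, Ly6c1 was at 3.98 CPM in shSrsf10 and 1.496 CPM in shCtrl, and in barcodes above 500 CPM of Ly6a it was at 67.7 CPM (64.8 to 70.8) and 40.3 CPM (32.6 to 49.3). Within such bins of Ly6a the libraries were closer than over all tumour barcodes, and between 200 and 500 CPM of Ly6a Ly6c1 stood at 15.1 CPM (13.6 to 16.7) in shSrsf10 and 14.6 CPM (11.2 to 18.8) in shCtrl. After thinning, 5.58% of 860 shSrsf10 tumour barcodes with Ly6a and 1.46% of 2744 without it held Ly6c1. The 8 endothelial check markers summed to 36.8 CPM in shSrsf10 and 45.5 CPM in shCtrl tumour barcodes, and the part of endothelial RNA in the Ly6c1 level was not tested. Tumour barcodes had 6.33 Ly6c1 UMIs per 100 of Ly6a in shSrsf10 and 7.96 in shCtrl, and endothelial barcodes 43.5 and 44.2. In T cells, where Ly6a was higher, the same ratio was 0.71 in CD8 T and 0.20 in other T barcodes of shSrsf10, so Ly6c1 was not a fixed share of Ly6a UMIs across classes. In CD8 T barcodes Ly6c1 had 36 UMIs in shSrsf10, 41.7% of them in 1 barcode, and 0 UMIs in shCtrl, where 3 counts would be 7.65 CPM. The 8.84 CPM of shSrsf10 was 1.16-fold that floor, below 1.5-fold, and the lower counting limit of the log2 ratio was -0.16. The 36 UMIs came from only 6 barcodes, and 34 of them were in a few of the 158 cycling barcodes without Pdcd1. Macrophages had 0 Ly6c1 UMIs in both libraries, although they held Ly6a.

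In CD8 T barcodes Ly6c2 was at 1866 CPM (1825 to 1909) in shSrsf10, the highest level of the 6 classes, and at 135 CPM (101 to 177) in shCtrl, where neutrophils stood higher. The log2 ratio was 3.79, a 13.8-fold difference and the highest of the CD8 T ratios among the members with UMIs in both libraries. It was 3.06 after thinning and 4.62 with the UMI thresholds of the class rules doubled. The share of CD8 T barcodes with a Ly6c2 UMI was 83.1% in shSrsf10 and 21.9% in shCtrl, where their median depth was 2750.5 and 2623 UMIs, and after thinning in 70.0% (67.1 to 72.8) and 13.4% (7.33 to 21.8). In tumour barcodes the share before thinning was 5.62% in shSrsf10 at a median of 26090 UMIs and 0.288% in shCtrl at 17051 UMIs. Of all kept Ly6c2 UMIs, 61.0% were in CD8 T barcodes in shSrsf10 and 8.31% in shCtrl, where such barcodes were far fewer. Other T barcodes had 339.7 CPM (319 to 361) in shSrsf10 and 104 CPM (81.4 to 131) in shCtrl. Their log2 ratio was 1.71 (1.36 to 2.07), but 0.96 as a mean over barcodes and 2.61 with doubled class thresholds. Only 0.47 Ly6c1 UMIs were counted per 100 Ly6c2 UMIs in shSrsf10 CD8 T barcodes, so at most that share of Ly6c2 reads was counted as Ly6c1 there.

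CD8 T barcodes with Pdcd1, the inhibitory receptor PD-1, held less Ly6c2 in both libraries. It stood at 1156 CPM with and 2222 CPM without a Pdcd1 UMI in shSrsf10, and at 52.7 CPM (28.8 to 88.4) with and 308 CPM (219 to 422) without in shCtrl. The intervals do not overlap in either library. Cycling barcodes, with a UMI of Mki67 or Top2a, were likewise lower, with 1319 against 2271 CPM in shSrsf10 and 54.7 against 237 CPM in shCtrl. Barcodes with neither had the highest level, 2508 CPM in 656 shSrsf10 barcodes and 444 CPM in 34 shCtrl barcodes, and those with both had 819.6 CPM in 90 shSrsf10 and 24.6 CPM in 25 shCtrl barcodes. Within these 4 combinations the log2 ratio was 2.50 (1.99 to 3.06) to 5.06 (3.69 to 6.94). The highest, in barcodes with both, rests on 4 shCtrl UMIs. In shCtrl, barcodes with Pdcd1 only had 10 UMIs, cycling barcodes without Pdcd1 had 8 and those with neither had 31. Barcodes with Pdcd1 numbered 248 of 1062 in shSrsf10 and 59 of 105 in shCtrl. Gzmb, the cytotoxic granule protease granzyme B, went with more Ly6c2 in shSrsf10, 1994 CPM with and 1244 CPM without it, and with less in shCtrl, 84.4 CPM (52.9 to 128) with and 236 CPM (160.1 to 334) without. Among other T barcodes Pdcd1 again went with less Ly6c2, 78.0 against 563 CPM in shSrsf10 and 13.8 against 171 CPM in shCtrl. Deeper barcodes are more likely to show a UMI of a state gene, so these splits also sort by depth.

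**Figure D4:**
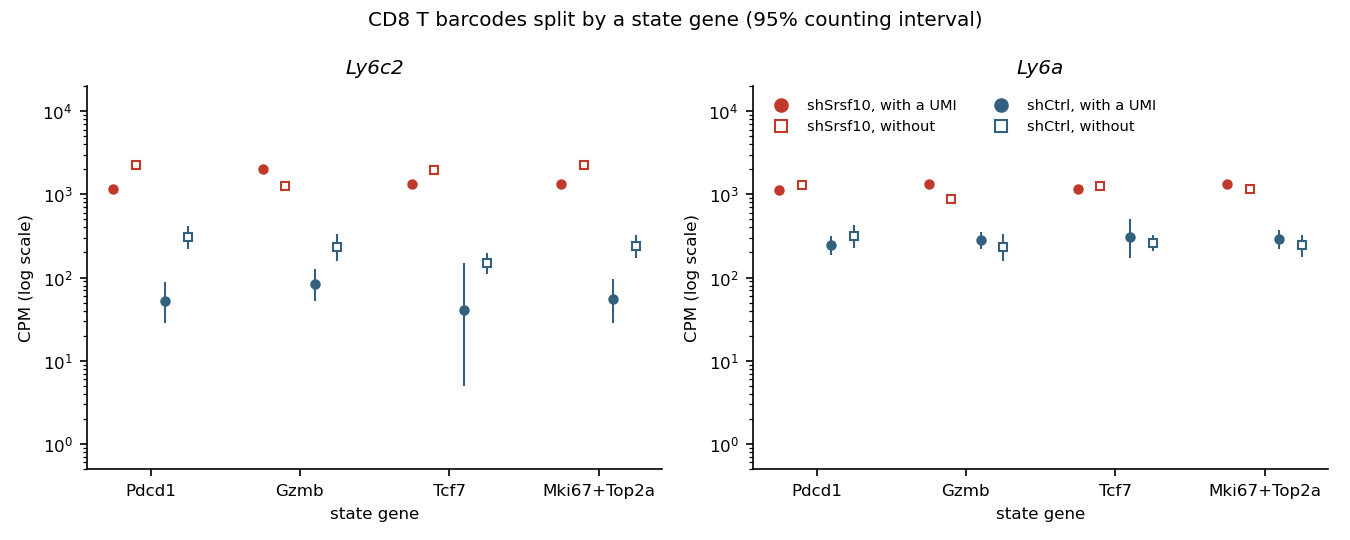
CPM (log axis) of Ly6c2 (left) and Ly6a (right) in CD8 T barcodes with (filled) and without (open) a UMI of each state gene, shSrsf10 left of shCtrl; bars are 95% Poisson intervals and a level of 0 UMIs is not drawn. Ly6c2 is lower with Pdcd1 and with Mki67 or Top2a in both libraries, while Ly6a of shSrsf10 stays between 867 and 1341 CPM in the splits drawn.

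Ly6a and Ly6e were within 1.5-fold between CD8 T barcodes with and without Pdcd1. In shSrsf10 CD8 T barcodes Ly6a was at 1126 CPM with and 1296 CPM without Pdcd1, and in shCtrl at 245 and 316 CPM. Ly6e was at 879 and 969 CPM in shSrsf10 and at 542 and 546 CPM in shCtrl. The widest split of Ly6a with over 30 barcodes on both sides was by Gzmb, with 1316 CPM with and 867 CPM without it in shSrsf10.

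A minority of neutrophil and macrophage barcodes also held Ly6c2. Before thinning, a UMI was found in 12.9% of shSrsf10 and 7.04% of shCtrl neutrophils, and in 10.5% of shSrsf10 and 2.12% of shCtrl macrophages. Neutrophils had 683 CPM (587 to 790) in shSrsf10 and 295 CPM (209 to 405) in shCtrl (log2 ratio 1.21, 0.70 to 1.76), with 36.3% and 31.6% of the UMIs in 1 barcode each. Macrophages had 169.7 CPM (134 to 212) in shSrsf10 and 17.7 CPM (10.3 to 28.4) in shCtrl, with 37.7% and 29.4% of these UMIs in 1 barcode each. Their log2 ratio was 3.26 (2.49 to 4.11), and 2.47 with doubled class thresholds. The neutrophil ratio was 1.94 after thinning, where only 3 shCtrl barcodes held a UMI, and 1.87 as a mean over barcodes. The RNA of CD8 T barcodes, scaled by 9 T cell genes, would give 20.5 CPM in shSrsf10 neutrophils and 24.0 CPM in shSrsf10 macrophages. Barcodes that met a monocyte rule had 3504 CPM in 19 shSrsf10 and 1249 CPM in 10 shCtrl barcodes, but only 2 of 6 and 3 of 6 check markers were highest there. Those levels stood above CD8 T barcodes in both libraries. In tumour barcodes Ly6c2 was at 2.93 CPM in shSrsf10 and 0.150 CPM in shCtrl, from 314 and 18 UMIs. CD8 T RNA in proportion to the same 9 genes would give 1.82 and 0.039 CPM, and 28.0% of the shSrsf10 UMIs lay in 1 barcode. The log2 ratio was 4.29 (3.61 to 5.07), 5.12 in barcodes without immune UMIs, 5.32 as a mean over barcodes and 3.52 without doublet ranking. The part of T cell RNA in these UMIs was not tested.

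Ly6e, an interferon-induced gene whose product limits entry of some viruses, was the most evenly spread member. In tumour barcodes it was at 760.4 CPM (755 to 766) in shSrsf10 and 581 CPM (576 to 585) in shCtrl (log2 ratio 0.39, 0.37 to 0.40), and was found in 97.0% and 93.2% of barcodes. It was below 1.5-fold in tumour, other T (0.17, 0.04 to 0.30) and macrophage (0.33, 0.20 to 0.45) barcodes. Neutrophils stood apart, with 1374 CPM (1236 to 1522) in shSrsf10 and 295 CPM (209 to 405) in shCtrl (log2 ratio 2.22, 1.73 to 2.74) from 366 and 38 UMIs. That interval lay above those of the 5 other classes. CD8 T barcodes had 939 CPM in shSrsf10 and 543 CPM in shCtrl (0.79, 0.59 to 1.00), and endothelial barcodes 2461 CPM in shSrsf10 and 1191 CPM in shCtrl (1.05, 0.76 to 1.34). Both came under 1.5-fold after thinning, at 0.53 in CD8 T and 0.34 in endothelial barcodes, and the endothelial ratio was 0.44 when barcodes meeting more than 1 class rule were kept. Among tumour barcodes Ly6e followed class II level in both libraries, and above 2000 CPM of class II it was at 824 CPM in shSrsf10 and 814 CPM in shCtrl (log2 ratio 0.02, -0.05 to 0.09). With equal weight per class II bin the ratio over tumour barcodes was 0.19. Ly6e was higher in cycling tumour barcodes, with 828 CPM in shSrsf10 and 683 CPM in shCtrl, than in the rest, with 696 and 509.7 CPM. Over tumour barcodes Igfbp4 and the actin-binding gene Pfn1 correlated most with it in shSrsf10 (r of 0.46 each), and both were among the 3 highest in shCtrl (0.48 and 0.47). The hypoxia-induced genes Ndrg1 and Bnip3 were the 2 lowest in both (-0.31 and -0.29 in shSrsf10, -0.37 and -0.38 in shCtrl). Its r with the log of total UMIs was 0.38 in shSrsf10 and 0.32 in shCtrl.

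Ly6d, which marks early lymphoid progenitors and keratinocytes, was the only member lower in shSrsf10 tumour barcodes. It stood at 398 CPM (394 to 402) in shSrsf10 and 621 CPM (616 to 625) in shCtrl (log2 ratio -0.64, -0.66 to -0.63), and was found in 59.0% and 74.9% of barcodes. The median barcode had 37.6 CPM in shSrsf10 and 202 CPM in shCtrl, and the top 10% of barcodes held 70.9% of the UMIs in shSrsf10 and 54.0% in shCtrl. From the lowest to the highest group of liver gene level it was at 134, 391, 839 and 1020.3 CPM in shSrsf10 and at 166, 359, 617 and 1019 CPM in shCtrl. The level was higher at each step in both libraries. Within the groups the log2 ratio was -0.31, 0.12, 0.44 and 0.00 (-0.03 to 0.04), and with equal weight per group it was 0.14, on the other side of 0 from the ratio over all tumour barcodes. The median tumour barcode had 3066 CPM of the 4 liver genes in shSrsf10 and 5936 CPM in shCtrl. Over single barcodes Rbp4, Igfbp1 and Ambp, genes of secreted liver proteins, correlated most with Ly6d in shSrsf10 (r of 0.42, 0.37 and 0.33), and Ambp, Ttr and Igfbp1 in shCtrl (0.36, 0.30 and 0.30). Ly6d was lower at high class II level, with 234 CPM in shSrsf10 and 304 CPM in shCtrl above 2000 CPM of class II, against 433 and 642 CPM in barcodes without class II.

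The other 5 classes held Ly6d at lower levels than tumour barcodes in both libraries. CD8 T barcodes had 17.7 CPM in shSrsf10 and 35.7 CPM in shCtrl, where tumour RNA scaled by 10 tumour markers would give 49.0 and 38.4 CPM. Other T barcodes had 14.3 CPM in shSrsf10 and 156 CPM in shCtrl, where it would give 24.2 and 122 CPM, and 57.5% of the 106 shCtrl UMIs lay in 1 barcode. Neutrophils had 37.5 CPM in shSrsf10 and 109 CPM in shCtrl, where it would give 57.4 and 142 CPM. Macrophages had 13.2 CPM in shSrsf10 and 36.5 CPM in shCtrl, where it would give 23.2 and 77.1 CPM. Endothelial barcodes had 3 UMIs (15.7 CPM) in shSrsf10 and 4 UMIs (38.1 CPM) in shCtrl, where it would give 9.07 and 59.3 CPM. The observed level was below the scaled one except in endothelial barcodes of shSrsf10 and other T barcodes of shCtrl. The other T ratio, -3.44, was -2.80 without the barcode with most UMIs and -0.16 without doublet ranking, and the CD8 T ratio, -1.01, was 0.17 when barcodes meeting more than 1 class rule were kept. Ly6d stood lower in shSrsf10 in these 5 classes and in tumour barcodes. The scaled level was lower in shSrsf10 in the same classes except CD8 T, where it was higher. The part of tumour RNA in these Ly6d levels was not tested.

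B barcodes, with 66 in shSrsf10 and 49 in shCtrl, had 2 of 4 measured members higher and 2 lower, against 31.4% and 31.6% of 1501 genes. Ly6c2 was at 1863 CPM (1711 to 2025) in shSrsf10 and 189 CPM (86.2 to 358) in shCtrl, and Ly6a at 1196 CPM (1074 to 1327) and 251 CPM (129.9 to 439). Most of this lay in barcodes rich in plasma cell genes. Those with at least 1000 CPM of Jchain, Sdc1 and Xbp1 numbered 29 in shSrsf10 and 4 in shCtrl and had 478 of the 550 Ly6c2 UMIs of shSrsf10 and 0 of the 9 of shCtrl. Below 1000 CPM, Ly6c2 was at 1149.8 CPM (899.6 to 1448) in 37 shSrsf10 barcodes and had 9 UMIs (91.4 to 379.6 CPM) in 45 shCtrl barcodes, 88.9% of them in 1 barcode. Ly6e was lower in B barcodes, at 1362 CPM in shSrsf10 and 2096 CPM in shCtrl (log2 ratio -0.62, -0.94 to -0.29), and the ratio was -0.10 after thinning. Thinning, which left 9 shCtrl barcodes, also moved the B ratio of Ly6c2 to 1.04, against 3.30, and that of Ly6a to 1.02, against 2.25. Ly6d, at 268 CPM in shSrsf10 and 1320 CPM in shCtrl, had a ratio of -2.30 (-2.80 to -1.80), and -0.48 after thinning. Below 1000 CPM of the plasma cell genes, Ly6d was at 1054 CPM in shSrsf10 and 1378 CPM in shCtrl (-0.39, -0.91 to 0.14). Ly6e was at 1613 CPM in shSrsf10 and 1866.5 CPM in shCtrl there (-0.21, -0.64 to 0.22), so both intervals include 0. In the barcodes rich in these genes Ly6e had 301 UMIs in shSrsf10 and 16 in shCtrl (-2.19, -2.91 to -1.36), and Ly6d 13 and 1.

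Plasmacytoid dendritic barcodes held all but Ly6c1 at high levels, though they numbered 13 in shSrsf10 and 12 in shCtrl. Ly6d was at 5466 CPM (4761 to 6245) in shSrsf10 and 3041 CPM (2460 to 3717) in shCtrl, the highest Ly6d level of any class in both libraries. In shSrsf10 Ly6a was at 3669, Ly6c2 at 3112 and Ly6e at 2581 CPM, and in shCtrl Ly6a was at 1024, Ly6c2 at 1664 and Ly6e at 2017 CPM. Of the 4 measured members 3 were higher, against 28.3% of 515 genes, with 14.6% lower. The Ly6d log2 ratio of 0.85 (0.49 to 1.21) was 0.09 without doublet ranking, and when barcodes meeting more than 1 class rule were kept Ly6d stood at -0.71 and Ly6c2 at -0.69.

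Of 35 other genes of the Ly6 and uPAR domain family, 33 were in the files and 16 had enough UMIs in tumour barcodes. There 4 were higher and 0 were lower by 1.5-fold, where 8.35% of all genes compared were higher and 13.4% lower, and the median log2 ratio was 0.09, where the median over all genes compared was -0.07. Tex101 was at 11.6 CPM in shSrsf10 and 2.09 CPM in shCtrl (log2 ratio 2.47, 2.28 to 2.68), and Ly6g2 at 14.5 CPM in shSrsf10 and 9.11 CPM in shCtrl (0.67). The other two rest on fewer counts: Ly6i had 15 UMIs in shSrsf10 and 5 in shCtrl (1.75), and Ly6f 162 UMIs in shSrsf10 and 59 in shCtrl (1.63). Psca, a surface protein of prostate and gastric epithelium, was at 9.91 CPM in shSrsf10 and 7.10 CPM in shCtrl (0.48), and Plaur, the urokinase receptor, at 125 CPM in shSrsf10 and 112 CPM in shCtrl (0.15). The remaining 10, Ly6g, Ly6m, Ly6g5b, Lynx1, Slurp1, Gpihbp1, Cd59a, Cd59b, Lypd8 and Pinlyp, were within 1.5-fold, from Cd59b at -0.57 to Ly6m at 0.37. In macrophages Ly6i had 40 UMIs in shSrsf10 and 3 in shCtrl (log2 ratio 4.82, 3.17 to 7.16). In endothelial barcodes Gpihbp1, which carries lipoprotein lipase across capillary walls, was at 3647 CPM in shSrsf10 and 3019 CPM in shCtrl (log2 ratio 0.27, 0.08 to 0.47), below 1.5-fold where Ly6a and Ly6c1 were above it. In neutrophils Ly6g, the antigen used to sort mouse neutrophils, had 26 UMIs in shSrsf10 and 8 in shCtrl (0.65, -0.53 to 2.01), and Plaur stood at 1314 CPM in shSrsf10 and 901 CPM in shCtrl (0.54). Ly6i had 21 UMIs there in shSrsf10 and 4 in shCtrl (1.34, -0.22 to 3.35). Plaur was at 1.53 (-0.38 to 4.61) in CD8 T, -0.80 (-1.70 to 0.17) in other T, 0.38 in macrophage and -0.07 in endothelial barcodes, and Cd59a at 0.22 in endothelial barcodes.

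Genes induced by interferon gamma were higher beside Ly6a in tumour barcodes. Of 21 such genes, 20 were measured there and all 20 were at least 1.5-fold higher. Their median log2 ratio was 2.62, where the median over all genes was -0.07. The ratios ran from Socs1, a feedback inhibitor of cytokine signalling, at 0.88 to the class II chain genes H2-Ab1 at 3.28 and H2-Aa at 3.71. CD8 T barcodes had 12 of 19 higher and 1 lower, with a median of 1.24 when the 1 gene at 0 UMIs in shCtrl was put at its 3-count bound, against -0.12 over all genes. Other T barcodes had 7 of 19 higher and 2 lower (median 0.36, all genes -0.12). In neutrophils 15 of 15 were higher (median 1.56 with 1 gene at its bound, all genes 0.16), in macrophages 11 of 20 (0.64, all genes -0.08) and in endothelial barcodes 8 of 12 (1.00, all genes 0.01). Of the genes induced by type I interferon, 8 of 13 measured in tumour barcodes were higher and 1 lower (median 0.82), from Ifit1 at -1.14 to Zbp1 at 1.77 and Oasl2 at 1.85. All 10 measured were higher in CD8 T barcodes (median 2.05), and all 10 in neutrophils (2.12 with 1 gene at its bound). Ifit1 and Rsad2, antiviral proteins, led the neutrophil ratios of genes with UMIs in both libraries, at 2.50 and 2.45. In other T barcodes 8 of 10 were higher (1.10 with 1 gene at its bound), in macrophages 5 of 9 (0.76) and in endothelial barcodes 3 of 6 (0.59). Over all genes compared, the share higher was 8.35% in tumour, 22.6% in CD8 T, 14.3% in other T, 30.4% in neutrophil, 9.26% in macrophage and 22.1% in endothelial barcodes. The members and these lists share the libraries, so the counts are given side by side with no test.

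Across classes the members did not share 1 pattern. Over the 14 sums of 7 classes and 2 libraries with at least 20 barcodes, the Pearson r of log2(CPM + 10) was 0.62 between Ly6a and Ly6e, 0.41 between Ly6a and Ly6c1, 0.03 between Ly6a and Ly6c2, and -0.57 between Ly6c1 and Ly6c2. Among 3200 genes the 3 most like Ly6a were Park7 (0.86), Tmem223 (0.83) and Hnrnpdl (0.83). Those most like Ly6c1 were Acer2, Uchl1 and Mal (0.98 to 0.97), and like Ly6c2 Lsp1, Tmem134 and Selplg (0.90 to 0.87). Those most like Ly6e were Xaf1, Pkig and Cd38 (0.82 to 0.77), and like Ly6d Scd1, Stard10 and Ralgps2, led by Scd1 at 0.84. The sums of a library share its depth and preparation, so these values are a description.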

How the data were processed

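Dissociated liver tumours were measured by droplet single-cell RNA sequencing, 1 library per group. Each deposited matrix gives UMI counts (whole numbers) by gene and barcode, made with Cell Ranger 6.1.0 on mm10, per the submitters' processing notes. The series' design names a 5' kit and the sample protocol a 3' kit, so which end of each transcript was read is not settled. Barcodes are 17 characters long as deposited, and the lowest total is 500 UMIs in both files.

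Kept barcodes had at least 200 genes, 500 UMIs and at most 20% mitochondrial UMIs, which 0.847% of shSrsf10 and 3.78% of shCtrl barcodes exceeded. Scrublet (scanpy 1.11.5) marked 199 shSrsf10 and 0 shCtrl barcodes by its automatic threshold, so the highest-scoring 0.8% per 1000 barcodes were removed instead, 456 and 787. For 38 symbols with several gene IDs the ID with fewer UMIs was set aside.

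Classes were set by UMIs: tumour (Krt8 and Krt18 at least 5, no Ptprc), T (Cd3d, Cd3e and Cd3g at least 2, CD8 T with Cd8a or Cd8b1), neutrophil (S100a8 and S100a9 at least 1% of UMIs), macrophage (C1qa, C1qb and C1qc at least 3) and endothelial (Pecam1, Cdh5, Plvap and Flt1 at least 3, no Ptprc). B, NK, monocyte, plasmacytoid dendritic and fibroblast barcodes had rules of the same kind. Barcodes meeting more than 1 rule of the 6 main classes, tumour to endothelial, were left out. A barcode that met 1 of these rules stayed in that class even if it also met a rule of the further classes. Barcodes of the further classes met no other rule.

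UMIs were summed per class and library. Intervals (95%) are exact Poisson for CPM, Clopper-Pearson for shares and conditional binomial for ratios. UMIs remove most PCR duplicates, and the intervals cover counting error only. The 3-count floor is per library. For shares, barcodes were thinned to 1000 UMIs and shallower ones left out. No test was made. Of the planned T cell state genes 1, and of the motifs searched 1, are not reported here.

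The members, lists and classes were chosen with earlier results of these data known. Named genes are the members, family members with at least 20 UMIs, the 3 genes most like each member in log2(CPM + 10), and the 2 highest and the lowest gene of each interferon list in tumour barcodes, with the 2 highest type I genes in neutrophils; this last rule covers every class, and the other classes are given by counts. Splits by liver genes, Tff2, plasma cell genes and of other T barcodes, the joint CD8 T split, likeness over single barcodes and levels scaled from another class were added after values were seen. Scripts used Python 3.11.15, numpy 2.4.6, scipy 1.17.1, pandas 2.3.3 and matplotlib 3.10.9. Only the ratio, its interval and the 1.5-fold call were tried on simulated data. Those data were Poisson counts of class sums, without the spread of UMIs between barcodes.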

Additional observations from a re-analysis of the deposited data

Results flagged for a closer look

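Results for 2 genes went opposite ways in different classes, and in both cases the difference between the classes was not tested. Ly6e was lower in B barcodes of shSrsf10, with a log2 ratio of -0.62 (-0.94 to -0.29), while its counting interval lay above 0 in 6 classes. In B barcodes below 1000 CPM of plasma cell genes the Ly6e ratio was -0.21 (-0.64 to 0.22). Ly6d was higher in plasmacytoid dendritic barcodes of shSrsf10, with a log2 ratio of 0.85 (0.49 to 1.21), while its interval lay below 0 in 6 classes. The 0.85 became 0.09 without doublet ranking and -0.71 when barcodes meeting more than 1 class rule were kept. In CD8 T, neutrophil and macrophage barcodes, which are among those 6 classes, Ly6d was below the level scaled from tumour RNA in both libraries.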

How the results depend on the processing

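No paired analysis was possible because each group has 1 library, and for the same reason no replicate could be left out. Of 313 alternative values for 38 member ratios, 228 stayed inside the counting interval of the reported ratio, 78 moved outside it and 7 turned a ratio past 1.5-fold to the other side of 0. A further 6 values, all of Ly6e in monocyte or plasmacytoid dendritic barcodes, where the reported ratios were within 1.5-fold, also changed sign. The cause of these changes was not tested. The Ly6a ratio in CD8 T barcodes stayed inside its interval in the alternatives run (1.93 to 2.29). In tumour barcodes the Ly6a log2 ratio was 3.09 in barcodes without immune UMIs, 3.29 as a mean over barcodes and 3.20 after thinning. With equal weights, an alternative chosen after seeing the data, it was 2.51 over liver gene groups and 2.23 over class II bins. The Ly6e ratio there was 0.40 in all deposited barcodes, 0.35 without immune UMIs, 0.37 without mitochondrial and ribosomal genes in the total, 0.42 as a mean over barcodes, 0.41 over liver gene groups and 0.19 over class II bins. The Ly6c2 ratio in CD8 T barcodes was 4.62 with doubled class thresholds, 2.84 as a mean over barcodes and 3.06 after thinning.

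The sign changed for Ly6c2 in NK barcodes (-0.67) to 1.04 after thinning, which left 1 shCtrl UMI, and to 0.16 without the barcode with most UMIs, chosen after seeing the data. Keeping barcodes of more than 1 class changed Ly6c2 and Ly6d in plasmacytoid dendritic barcodes to -0.69 and -0.71, and Ly6d in CD8 T barcodes to 0.17. Ly6e in fibroblast barcodes became -0.19 after thinning, and Ly6d in tumour barcodes 0.14 over liver gene groups. The number of genes at least 1.5-fold higher depends on the minimum count. With no minimum, and with 100 UMIs, it was 3612 and 619 in tumour (reported 1217), 6009 and 813 in CD8 T (1930), 3833 and 482 in other T (1182), 3593 and 192 in neutrophil (630), 2402 and 112 in macrophage (536) and 3658 and 93 in endothelial barcodes (465). Thinning gave 601 in tumour, 235 in neutrophil and 86 in endothelial barcodes. Keeping barcodes of more than 1 class gave 947 in macrophage and 951 in endothelial barcodes, and the mean over barcodes 845 in macrophage barcodes. Endothelial, B, NK and plasmacytoid dendritic barcodes are few, and their depth limits what these ratios can show.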

Other observations

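Barcodes that met no class rule numbered 884 in shSrsf10 and 1463 in shCtrl, with a median of 896 and 1011 UMIs. They had 406 CPM of Ly6a in shSrsf10 and 52.5 CPM in shCtrl, 496 and 96.9 CPM of Ly6c2, 36.0 and 7.50 CPM of Ly6c1, 988 and 644 CPM of Ly6e, and 280.0 and 397 CPM of Ly6d. Barcodes that met more than 1 rule of the 6 main classes numbered 103 in shSrsf10 and 58 in shCtrl, with a median of 28963 and 15448 UMIs. They had 497 CPM of Ly6a in shSrsf10 and 98.5 CPM in shCtrl, 48.9 and 6.25 CPM of Ly6c2, 846 and 668 CPM of Ly6e, and 230.4 and 548.5 CPM of Ly6d.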
